A study of Homo sapiens with 6 samples.

Results

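The baseline transcriptome of MCF10A cells was described from the 3 control libraries of an RNA-Seq series of 6 libraries. MCF10A is an established, spontaneously immortalized line of nonmalignant human mammary epithelial cells. The study transfected this line with siRNA against DAB2IP, a RAS GTPase-activating protein, or with a nontargeting siRNA pool (siControl), and total RNA was taken 48 hours later. The members here are the libraries labelled siControl, genotype WT, replicates 1, 2 and 3. The other 3 libraries of the series enter no value. All values therefore describe transfected cells, and no untransfected library was analysed here. The medium held 5% horse serum with insulin at 10 ug/mL, EGF at 20 ng/mL, cholera toxin at 100 ng/mL and hydrocortisone at 0.5 ug/mL, so every library also comes from cells under these hormones. Nothing in the labels says that the replicates came from separate cultures, so the spread between them may be technical. DAB2IP itself, on chromosome 9, stood at 11.2, 10.3 and 8.39 FPKM in replicates 1, 2 and 3. FPKM is the count of a gene's fragments per kilobase of gene length, scaled to library size. The length is that of all annotated exonic bases of a gene, not of the transcripts these cells made. Levels of different genes are set side by side with this limit.

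The human mammary duct has an inner layer of luminal cells and an outer layer of basal, or myoepithelial, cells that rest on the basement membrane. Basal cells are known for the keratins KRT5 and KRT14, the transcription factor TP63, and the laminin-332 and integrin α6β4 of hemidesmosomes, and in the gland they also carry smooth muscle contractile proteins. Luminal cells are known for the keratins KRT8, KRT18 and KRT19, and a part of them for the hormone receptors ESR1 and PGR. Total counts were 16353783, 21916062 and 17149381, and an observed 0 is compatible with up to 3 counts, that is 0.183, 0.137 and 0.175 CPM. These limits cover counting error only.

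With a gene called expressed at a mean of at least 1 FPKM, MCF10A cells expressed 12404 of 58735 annotated genes. Of the 19951 protein-coding genes, 10528 were expressed, or 52.8%, and this share is the background for the lists described here. Another 4024 protein-coding genes had 0 counts in every library. The levels of protein-coding genes spanned a wide range: 6606 stood between 1 and 10 FPKM, 3650 between 10 and 100 FPKM, and 272 at 100 FPKM or more. Of 14994 long noncoding RNA genes, 948 were expressed. A gene past 1 FPKM in any library was usually past it in each, with 11648 of 13307 such genes, or 87.5%, meeting this in all 3 libraries.

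A listed 0 was not always a reading of absence. Of the 312 protein-coding genes that have no exonic base to themselves in the GENCODE annotation, 0 were expressed and 293 had 0 counts, with a highest mean of 3.33 counts. Among these were 18 genes whose exons overlap another gene's exons on the opposite strand only, such as ZNF593 and HYI, and 17 of the 18 had 0 counts. Reads in shared exons were therefore not counted for either gene, and strand did not separate them. Values of genes with mostly shared exons, such as the macrophage marker CD68, which has 14.2% of its exonic bases to itself, are read as lower limits here.

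Many basal genes stood at high levels. All 29 basal and myoepithelial markers were expressed, and 13 of them stood at 100 FPKM or more. The list was chosen with earlier results of these data known. Contractile genes of myoepithelial cells were kept in a separate list, with 8 of 17 expressed, so the full count of 29 is not a test. The keratin KRT14 stood at 961, 812 and 1076 FPKM, and its partner KRT5 at 827, 725 and 895 FPKM, which placed both among the 10 nuclear protein-coding genes with the highest levels. Integrin β4 (ITGB4), the hemidesmosome receptor of laminin-332, stood at 272, 249 and 287 FPKM. Its partner integrin α6 (ITGA6) stood at 154, 162 and 178 FPKM, below ITGB4 in each library. The laminin chains LAMA3 and LAMB3 had mean levels of 53.3 ± 4.47 FPKM and 181 ± 4.64 FPKM (SD, n = 3 here and throughout). COL17A1, the transmembrane collagen of the same adhesion complex, stood at 189, 189.6 and 200.3 FPKM. Among the regulators of the basal state, TP63 was lower, at 8.88, 8.07 and 6.65 FPKM, and the repressor SNAI2 stood at 8.40, 8.80 and 9.90 FPKM. NGFR, the low-affinity neurotrophin receptor and the lowest of the 29 markers, lay just above the threshold at 1.47, 1.92 and 0.924 FPKM.

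Of 36 luminal markers, 17 were expressed, or 47.2%, near the 52.8% of all protein-coding genes. In every library 7 of the 36 had 0 counts, as did 20.2% of all protein-coding genes. The hormone receptor arm of the list was nearly silent. The estrogen receptor ESR1 had 6, 3 and 4 counts, and the progesterone receptor PGR and the stem cell factor receptor KIT had 0 counts in every library. ELF5, a regulator of alveolar luminal cells, had 1, 1 and 2 counts. Their levels lay under 0.1 FPKM in each library. Other luminal genes were clearly present: the mucin MUC1 stood at 136, 108 and 109.9 FPKM, the adhesion molecule EPCAM at 34.7, 48.6 and 31.3 FPKM, and CD24, a surface glycoprotein, at 28.4, 35.6 and 35.3 FPKM. The luminal transcription factor GATA3 stood at 6.21, 6.11 and 5.04 FPKM. FOXA1, which opens chromatin for ESR1, lay at the threshold at 1.24, 1.48 and 0.744 FPKM, so that without replicate 2 the number of expressed luminal markers was 16.

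**Figure D1:**
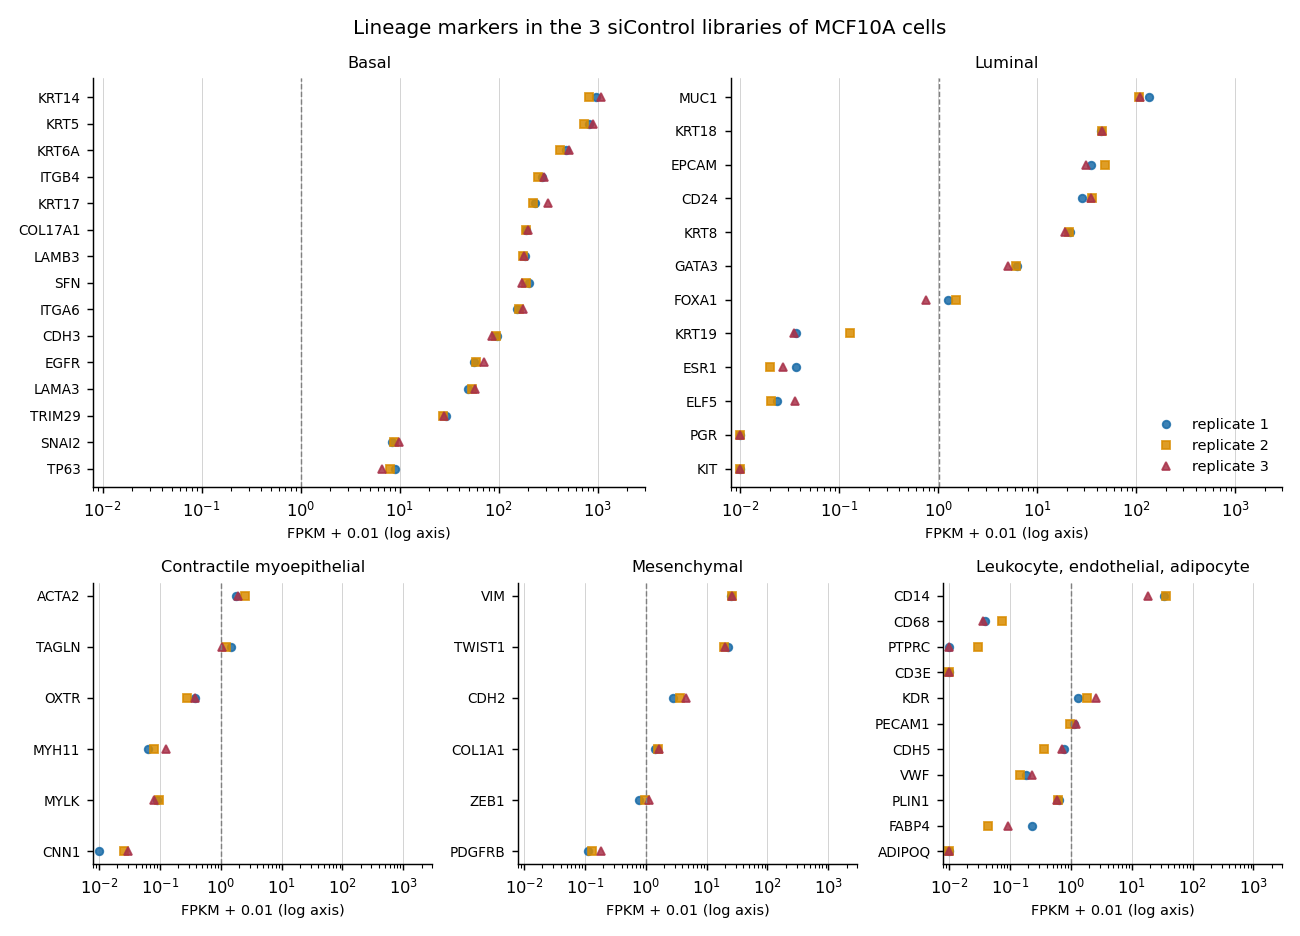
FPKM + 0.01 of lineage markers on a log axis, in panels for basal, luminal, contractile, mesenchymal and other cell types; each symbol is 1 siControl library and the dashed line marks 1 FPKM. The 15 basal markers shown lie right of the line in every library, while ESR1, ELF5, PGR and KIT lie near the left end.

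Keratins, the intermediate filament proteins of epithelia, were also set out on their own. The basal and luminal keratins summed here are members of the marker lists above, so they add no separate support. Of 54 keratin genes, 15 were expressed and 17 had 0 counts. The 7 basal keratins (KRT5, KRT14, KRT15, KRT17, KRT6A, KRT6B and KRT16) summed to 2868, 2489 and 3021 FPKM, and the 4 luminal keratins (KRT7, KRT8, KRT18 and KRT19) to 314, 295 and 276 FPKM. The ratio was 9.15, 8.43 and 10.9 in replicates 1, 2 and 3 (mean 9.50 ± 1.29), while KRT5 and KRT14 over KRT8 and KRT18 alone gave a mean of 27.0. Most of the luminal sum came from KRT7, which simple epithelia carry, at 248, 229 and 211 FPKM. KRT18 stood at 43.9, 45.2 and 45.6 FPKM and its partner KRT8 at 21.3, 20.8 and 19.3 FPKM. By counts they were close, with 2294, 3152 and 2523 for KRT18 and 2379, 3100 and 2282 for KRT8. The gap in FPKM comes from their listed lengths of 3218 and 6881 bases, and the keratin ratios above depend on such lengths too. KRT19 had 1, 6 and 1 counts, and the SD of its mean, 0.0566 ± 0.0536 FPKM, was almost as large as the mean.

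KRT81, a keratin of hair, came next after KRT14 and KRT5 by its mean, at 480.2, 542 and 545 FPKM, though its range overlapped that of KRT6A, at 481.5, 419 and 516 FPKM. KRT83 and KRT86, near-identical neighbours of KRT81, had means of 0.904 ± 0.158 and 0.958 ± 0.178 FPKM. Reads that match such copies equally well can be split or dropped in counting, and the same holds for KRT6A with KRT6B and KRT6C. KRT10, the keratin of suprabasal epidermis, stood at 237, 188 and 134 FPKM. Other genes of stratified differentiation were mixed, with 16 of 35 expressed, or 45.7%, near the background share. The cornified envelope gene SPRR1B stood at 58.7, 50.7 and 50.2 FPKM, IVL, the envelope precursor involucrin, had a mean of 0.920 FPKM just under the threshold, and LOR (loricrin) and TGM3 had 0 counts.

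**Figure D2:**
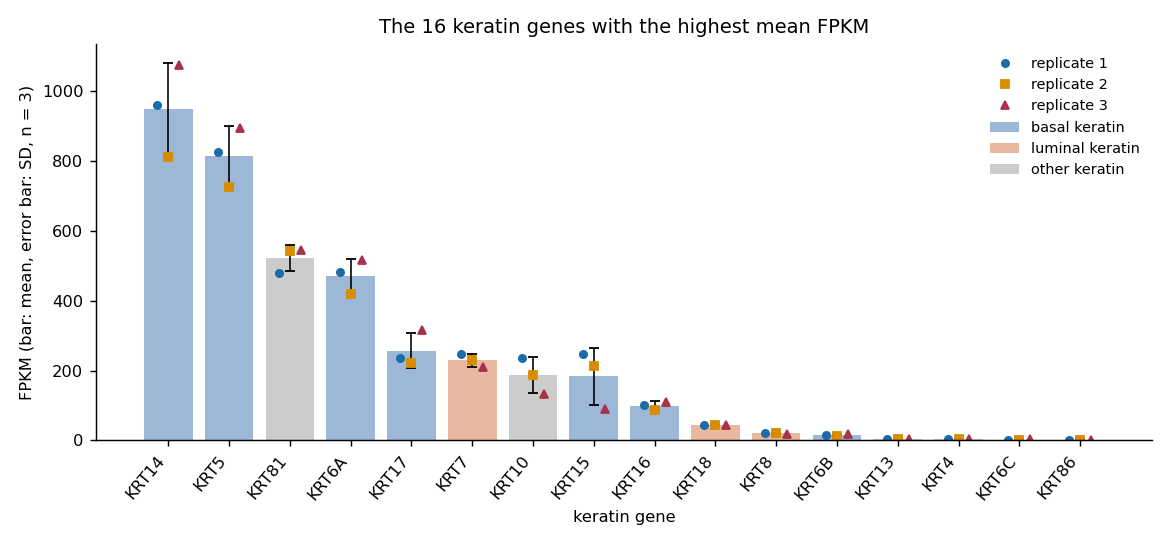
Mean FPKM (bars) with SD (error bars, n = 3) and the value of each siControl library (symbols) for the 16 keratin genes with the highest mean, coloured as basal, luminal or other keratin. KRT14 and KRT5 are highest, and KRT15 is the keratin whose replicate 3, at 89.9 FPKM, lies far below replicates 1 and 2.

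Sequence before the start sites of a few of these genes is shown because the results turn on these genes and their promoters differ in CpG content. The 60 bases directly before the RefSeq start (GRCh38) are given 5′ to 3′ for 2 keratins, a laminin chain, the EGF receptor, a calprotectin subunit and a chemokine. Capitals mark TATAAA or ATAAAA on the gene's strand, letters that TATA boxes often hold. ATAAAA was added to the search after these windows were read.
KRT5: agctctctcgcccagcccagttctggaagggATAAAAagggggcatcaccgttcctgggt
KRT8: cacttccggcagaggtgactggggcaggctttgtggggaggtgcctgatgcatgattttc
LAMB3: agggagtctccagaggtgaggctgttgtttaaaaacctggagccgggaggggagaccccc
EGFR: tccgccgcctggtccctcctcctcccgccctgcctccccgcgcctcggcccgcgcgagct
S100A9: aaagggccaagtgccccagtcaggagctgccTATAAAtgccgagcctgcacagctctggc
CXCL1: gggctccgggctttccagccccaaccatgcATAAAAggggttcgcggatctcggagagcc
These lie at chr12:52520395-52520454 (minus strand) for KRT5, chr12:52926470-52926529 (minus) for KRT8, chr1:209652426-209652485 (minus) for LAMB3, chr7:55018957-55019016 (plus) for EGFR, chr1:153357794-153357853 (plus) for S100A9 and chr4:73869333-73869392 (plus) for CXCL1. The marked letters begin 29 bases before the start in KRT5 and S100A9 and 30 bases before it in CXCL1. In the 50 bases before the start, TATAAA was present in 2.63% and ATAAAA in 2.26% of all 35116 windows of the promoter table. A match is a description of letters, not a site of binding. The KRT8 window lies well inside the gene's listed span, 52897187 to 52949954, and which start these cells used was not measured.

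Most expressed genes had CpG-rich starts. A 300-base promoter window was matched to 8621 of the 10528 expressed protein-coding genes, or 81.9%. Of these, 85.8% had an observed over expected CpG of at least 0.6, against 48.9% of all windows in the table, which also hold noncoding genes. Over all protein-coding genes the share was 66.6%, but a window was matched to 76.9% of them, so that this comparison is void. The GC box letters GGGCGG were present on either strand in 72.0% of the windows of expressed genes and in 45% of all windows, and CCAAT in 37.1% and 34.6%. Over all protein-coding genes these shares were 59.2% and 36.6%, a comparison void for the same reason. The CpG-rich share for genes with 0 counts is void, since a window was matched to 68.0% of them. By this measure EGFR and CXCL1 were CpG-rich, at an observed over expected CpG of 0.893 and 0.674. KRT5 at 0.301, LAMB3 at 0.358, S100A9 at 0.218 and the KRT8 window inside its gene at 0.111 were not.

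Contractile genes of myoepithelial cells were mixed. Of 17 such genes, 8 were expressed, or 47.1%, a share near the 52.8% of all protein-coding genes. The tropomyosin TPM2 led at 60.9, 59.9 and 61.7 FPKM, and the actin-binding caldesmon CALD1 (28.9 FPKM), the transcription factor SRF (10.6 FPKM), the tropomyosin TPM1 (6.90 FPKM) and smoothelin, SMTN (4.83 FPKM), were also expressed by their means. Smooth muscle actin (ACTA2) stood at 1.76, 2.51 and 1.89 FPKM and the actin-binding protein TAGLN at 1.46, 1.2 and 1.04 FPKM. Calponin (CNN1) had 0, 1 and 1 counts. Smooth muscle myosin heavy chain (MYH11) and its kinase MYLK had means of 0.0802 ± 0.0318 and 0.0796 ± 0.00837 FPKM, and MYOCD, the coactivator of smooth muscle genes, had 0 counts.

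Epithelial junction and identity genes were broadly present, with 28 of 33 pan-epithelial genes expressed. PERP, a desmosomal protein, stood at 290.0, 317 and 300.1 FPKM and desmoplakin (DSP) at 155, 139.7 and 189 FPKM. E-cadherin (CDH1), the main adherens junction protein of epithelia, stood at 47.3, 45.3 and 41.4 FPKM, below P-cadherin (CDH3), its basal counterpart, at 95.9, 93.2 and 86.6 FPKM in every library. The splicing regulator ESRP1 had a mean of 9.46 ± 0.756 FPKM. GRHL2, an epithelial transcription factor, was listed at 0 counts in every library although 99.2% of its exonic bases are its own. Its relative GRHL1 lay just below the threshold at 0.884, 0.917 and 0.906 FPKM, and the repressor OVOL2 at it, with a mean of 1.06 ± 0.351 FPKM.

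Beside this epithelial pattern, 15 of 29 mesenchymal genes were expressed, a share close to the background. The collagen cross-linking enzyme LOX stood at 51.2, 50.6 and 47.4 FPKM, the filament protein vimentin (VIM) at 25.3, 25.7 and 26.2 FPKM, and the transcription factor TWIST1 at 22.5, 19.3 and 20.0 FPKM. N-cadherin (CDH2), at 2.76, 3.65 and 4.64 FPKM, stood far below both epithelial cadherins. The repressor ZEB1 lay at the threshold with 0.770, 0.950 and 1.1 FPKM. Genes known from fibroblasts were mixed. THY1, a surface glycoprotein, and PRRX1, a homeobox factor, had 0 counts, and PDGFRB, a growth factor receptor of pericytes and fibroblasts, had 0.104, 0.123 and 0.171 FPKM. The proteoglycan decorin (DCN) stood at 11.4, 14.1 and 21.2 FPKM, the matrix glycoprotein SPARC at 9.93, 10.1 and 12.7 FPKM and the protease FAP at 1.85, 2.56 and 3.62 FPKM, with replicate 3 highest for all of them.

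Markers of other cell types were close to absent. Of 22 leukocyte markers 2 were expressed, and the pan-leukocyte phosphatase PTPRC had 0, 4 and 0 counts while the T cell chain CD3E had 0 counts. The exceptions were CD14, the lipopolysaccharide co-receptor, at 34.1, 36.7 and 18.8 FPKM, and CSF1R, the macrophage growth factor receptor, at 1.76, 1.56 and 1.39 FPKM. Of 16 endothelial and pericyte markers 3 were expressed, with PECAM1 at 1.14, 0.958 and 1.2 FPKM, and of 10 adipocyte markers 2, with ADIPOQ (adiponectin) at 0 counts. Of 29 markers of distant tissues 18 had 0 counts, among them INS, ALB and MYOD1. Of 21 milk and secretory differentiation genes 5 were expressed and 9 had 0 counts, among them casein CSN2 and lactalbumin LALBA. The expressed ones were the fatty acid synthase FASN at a mean of 167 FPKM, the signal transducer STAT5B at 10.1 FPKM, xanthine dehydrogenase (XDH) at 4.63 FPKM, lactoferrin (LTF) at 4.55 FPKM and the lipase CEL at 3.61 FPKM. PLIN2, a lipid droplet coat gene that many cell types use, had 6, 13 and 8 counts although all of its exonic bases are its own.

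At the top of the transcriptome stood mitochondrial, defense and translation genes. The 37 mitochondrially encoded genes held 10.8% ± 0.162 of counts, and 37.2% ± 0.682 of summed FPKM. MT-CO1 and MT-CO2, subunits of cytochrome c oxidase, led with means of 19035 ± 442 and 19801 ± 439 FPKM. MTATP6P1, a nuclear pseudogene that copies MT-ATP6, was listed at 772 ± 48.5 FPKM and is uncertain for that reason. The 100 genes with most counts held 24.6%, 24.1% and 24.4% of counts in replicates 1, 2 and 3, and the top 1000 held 55.4% ± 0.324.

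Among nuclear protein-coding genes, SAA1, the acute phase protein serum amyloid A, was the highest, at 2079, 2165 and 1832 FPKM. Its near-identical copy SAA2 stood at 83.2, 89.4 and 82.3 FPKM, and the sum of both was 2110.4 ± 176 FPKM. FPKM divides by gene length, so this sum can still depend on how reads were split between them. Complement C3 stood at 880.3, 901 and 829 FPKM and the secreted protease inhibitor SLPI at 853, 907 and 755 FPKM. S100A9, a subunit of the antimicrobial protein calprotectin, stood at 919.9, 857 and 556 FPKM and its partner S100A8 at 248, 205 and 151 FPKM, with replicate 3 lowest for both. These 4 secreted or calcium-binding proteins and SAA1 were the 5 highest of 30 innate defense genes, of which 19 were expressed. DEFB1, a defensin, lay at the threshold with a mean of 1.02 FPKM, and DEFB4A and DEFB103A had 0 counts.

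Other nuclear protein-coding genes among the 30 highest, beside the keratins KRT14, KRT5, KRT81 and KRT6A, had varied roles. They included the actin-sequestering peptide TMSB10 (1199 ± 162 FPKM), the elongation factor EEF1A1 (1030.3 ± 175 FPKM), the metal-binding MT2A (926 ± 16.1 FPKM), the lysosomal saposin precursor PSAP (750.4 ± 70.4 FPKM), the calcium-binding S100A6 (697 ± 113 FPKM), the metalloprotease inhibitor TIMP1 (501 ± 60.7 FPKM) and the leucine transporter SLC7A5 (487 ± 72.4 FPKM). Every one of 20 housekeeping genes was expressed. Among transcription factor genes 792 of 1553 were expressed, or 51.0%, near the background share. MYC, a driver of growth and cell division, had the highest mean, with 221, 224 and 225 FPKM. Its range overlapped that of YBX1, an RNA- and DNA-binding protein, at 229.9, 223 and 197 FPKM, so their order cannot be given. CEBPB, a factor of acute phase and mammary differentiation genes, stood at 126, 139.6 and 125 FPKM, and ID1, which blocks differentiation factors, at 100.3, 116 and 99.5 FPKM. ATF4, the factor that drives amino acid synthesis genes under stress, stood at 129, 105 and 79.9 FPKM.

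The highest long noncoding RNA was MIR205HG, host of miR-205, a microRNA known from basal epithelium, at 228, 196 and 183 FPKM. GAS5, a host of small nucleolar RNAs, followed at 104.8, 104.9 and 96.6 FPKM, then SNHG19, another such host, at 96.3, 96.2 and 83.4 FPKM, and NORAD, which binds Pumilio proteins, at 76.8, 73.1 and 75.1 FPKM. MIR17HG, host of the growth-promoting miR-17 cluster, was lower and less even, at 2.40, 5.08 and 6.16 FPKM. MIR31HG, host of miR-31 on chromosome 9, lay at the threshold with 0.662, 1.42 and 0.936 FPKM. The mature microRNAs were not measured in these libraries. Their RefSeq sequences are shown with the seed (bases 2 to 8) in capitals to show that the 3 hosts carry different seeds.
hsa-miR-205-5p: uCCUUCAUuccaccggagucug
hsa-miR-17-5p: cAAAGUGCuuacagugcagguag
hsa-miR-31-5p: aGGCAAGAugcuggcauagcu

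Receptors were read next, beginning with those of growth factors. Of 58 receptor tyrosine kinases, 29 were expressed, or 50%, near the background share, and 14 stood at 10 FPKM or more. FGFR3, a fibroblast growth factor receptor, was highest at 119.7, 109 and 87.3 FPKM. The ephrin receptor EPHA2 stood at 70.2, 65.6 and 67.6 FPKM, the hepatocyte growth factor receptor MET at 60.3, 66.4 and 70.9 FPKM, EGFR at 56.3, 58.8 and 70.6 FPKM and the collagen receptor DDR1 at 68.3, 63.6 and 53.3 FPKM. The ranges of these 4 overlapped, so their order cannot be given, whereas FGFR3 lay above each of them in all 3 libraries. ROS1, a proto-oncogene kinase, stood at 42.9, 50.5 and 54.4 FPKM. In the EGF receptor family, ERBB2 stood at 13.2, 14.1 and 13.2 FPKM and ERBB3 at 2.52, 2.45 and 1.94 FPKM, and ERBB4 had 0 counts. Over the 29 expressed kinases, the ranges of neighbours in the order overlapped for 20 of 28 pairs.

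Other receptor groups had a few dominant members. Of 45 cytokine receptors 25 were expressed, or 55.6%, near the background share. They were led by IL20RB, a subunit of the receptors of IL-20 family cytokines (129, 140.9 and 113 FPKM), the interferon γ receptor IFNGR1 (122, 133 and 109 FPKM) and the oncostatin M receptor OSMR (74.8, 77.0 and 69.0 FPKM). The type I interferon receptor subunit IFNAR2 was listed at a mean of 0.440 FPKM, but 16.8% of its exonic bases are its own. TGFBR2, which binds TGF-β, stood at 107, 148 and 143 FPKM, and 12 of 15 TGF-β and BMP receptors were expressed. The death receptor TNFRSF10B stood at 133, 140.9 and 146 FPKM. Of 26 integrin subunits 14 were expressed, or 53.8%, a share close to the background, and 4 stood at 100 FPKM or more (ITGB4, ITGB1, ITGA6 and ITGA3). Of 25 innate sensors 12 were expressed, or 48%, near the background share, led by TMEM173 (STING) at 22.5, 19.8 and 18.2 FPKM. Of 63 G protein-coupled receptors 19 were expressed, or 30.2%, below the background share.

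Of 48 nuclear receptors 22 were expressed, or 45.8%, a share near the 52.8% of all protein-coding genes. The orphan receptor ESRRA was highest at 59.7, 46.9 and 45.5 FPKM. Of 31 genes that receive the added hormones and toxin, 20 were expressed, or 64.5%, against 52.8% of all protein-coding genes. The glucocorticoid receptor NR3C1 stood at 8.87, 9.83 and 9.85 FPKM, and FKBP5, a known glucocorticoid target, at 94.6, 82.5 and 75.6 FPKM, while the mineralocorticoid receptor NR3C2 had a mean of 0.0499 FPKM. For insulin, the receptor INSR stood at 5.36, 5.71 and 5.78 FPKM and IGF1R, which binds insulin at high dose, at 20.5, 20.1 and 21.5 FPKM. GNAS, the G protein subunit that cholera toxin modifies, stood at 25.5, 26.6 and 26.3 FPKM. B4GALNT1, an enzyme on the path to the toxin's receptor ganglioside GM1, stood at 0.169, 0.363 and 0.472 FPKM, below the threshold in every library.

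RNA of EGF receptor ligands was present in these cells. Of 11 EGF family ligands 7 were expressed, or 63.6%, against 52.8% of all protein-coding genes. Amphiregulin (AREG) stood at 171, 256 and 323 FPKM and epigen (EPGN) at 30.9, 39.8 and 47.4 FPKM. HBEGF, a heparin-binding ligand, stood at 15.5, 14.9 and 9.15 FPKM and TGFA at 8.82, 10.1 and 11.6 FPKM. Betacellulin (BTC) lay just above the threshold at 1.05, 1.02 and 1.32 FPKM. The EGF gene itself had 4, 4 and 1 counts.

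For other ligands the list was mostly silent, with single genes far above the rest. Of 25 genes of fibroblast growth factors and their binding proteins 2 were expressed: FGFBP1, a carrier that releases FGFs from the matrix, at 162, 207 and 191 FPKM, and as the only growth factor of the list FGF2 at 1.84, 2.6 and 2.65 FPKM. Of 34 Wnt ligands and antagonists 6 were expressed, and the 2 highest were antagonists, SFRP1 at 267, 301 and 328 FPKM and DKK1 at 59.3, 69.0 and 84.2 FPKM. In the TGF-β superfamily 14 of 43 were expressed, led by the antagonist FSTL3 at 86.5, 87.3 and 98.5 FPKM, with TGFB1 at 47.2, 47.2 and 51.6 FPKM. Of 56 interleukins, interferons and related ligands 8 were expressed and 21 had 0 counts. The leading ones were the costimulatory ligand TNFSF9 at 41.0, 39.7 and 36.5 FPKM, IL18 at 24.0, 26.5 and 29.1 FPKM and IL1A at 11, 11.4 and 12.2 FPKM. IL6 and IL1B had means of 0.532 ± 0.124 and 0.752 ± 0.284 FPKM, under the threshold.

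Of 38 chemokines 8 were expressed. CXCL1, a neutrophil chemokine, stood at 167, 202 and 226 FPKM, CXCL8 of the same class at 24.9, 31.6 and 36.1 FPKM and CXCL2 at 19.2, 21.4 and 22.5 FPKM. The T cell chemokine CXCL9 and 14 others had 0 counts. Genes of both basement membrane and interstitial matrix were expressed. Of 27 basement membrane genes 17 were expressed, or 63.0%, against 52.8% of all protein-coding genes, and 7 stood at 100 FPKM or more, with LAMB1 at 188, 189 and 201 FPKM beside LAMA3 and LAMB3. Of 32 interstitial matrix genes 18 were expressed, or 56.25%, and 1 stood at 100 FPKM or more, TGFBI, a protein that binds collagen and integrins, at 159.6, 185 and 238 FPKM. The chain of collagen I COL1A1 stood at 1.41, 1.56 and 1.66 FPKM, while COL1A2 and COL3A1 had means of 0.00716 and 0.00603 FPKM.

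**Figure D3:**
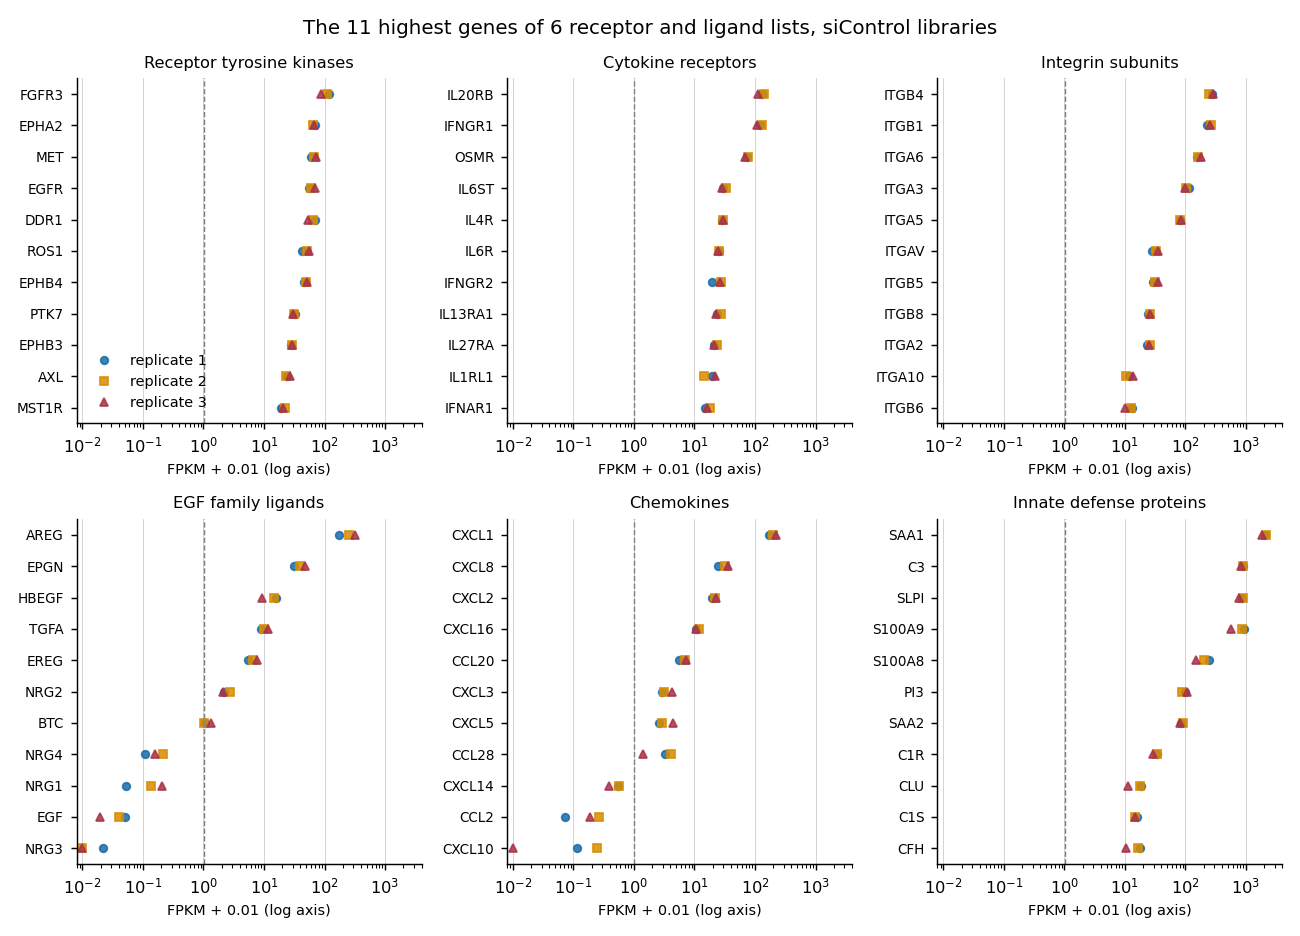
FPKM + 0.01 on a log axis for the 11 highest genes of 6 lists; each symbol is 1 siControl library and the dashed line marks 1 FPKM. The 11 kinases, cytokine receptors and integrins shown lie right of the line, while the EGF family falls from AREG at a mean of 250.2 FPKM to EGF and NRG3 near 0.

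A stretch of chromosome 9p21, from MTAP to CDKN2B, was nearly empty of counts. MTAP, an enzyme of methionine salvage, had 1, 2 and 1 counts, CDKN2A, which encodes the cell cycle inhibitors p16 and p14ARF, had 0, 2 and 0, CDKN2B, the inhibitor p15, had 1, 0 and 2, and the antisense gene CDKN2B-AS1 had 0 in each library. MCF10A cells are known to lack the CDKN2A locus, but DNA copy number was not measured here and the cause of these counts was not tested. From FOCAD to MTAP, 2 protein-coding genes were expressed: FOCAD, a focal adhesion protein gene, at 2.25, 2.63 and 2.61 FPKM and KLHL9, a ubiquitin ligase adaptor, at 3.82, 4.56 and 4.36 FPKM. Between KLHL9 and MTAP, the interferon gene IFNE had 2, 17 and 24 counts. On the other side, DMRTA1 had 6, 20 and 6 counts and ELAVL2, an RNA-binding protein of neurons, had a mean of 0.431 FPKM. From FOCAD to ELAVL2, 2 of 25 protein-coding genes were expressed and 15 had 0 counts, most of them interferon α genes. Of all protein-coding genes 52.8% were expressed and 20.2% had 0 counts. Of 46 cell cycle genes 41 were expressed, with the inhibitor CDKN1A (p21) at 48.4, 47.9 and 48.2 FPKM, the replication clamp PCNA at 35, 40.7 and 45.7 FPKM and the topoisomerase TOP2A at 30.7, 39.8 and 41.1 FPKM.

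The replicates were then set against each other. Over 26894 genes with a count in any library, the Pearson correlation of log2(FPKM + 1) was 0.989 between replicates 1 and 2, 0.985 between 1 and 3, and 0.989 between 2 and 3. The genes of a pair share their libraries and are not independent points. Among 10688 genes with a mean of at least 100 counts, a gene differed by a median of 1.09-fold between replicates 1 and 2, 1.13-fold between 1 and 3, and 1.09-fold between 2 and 3. The median coefficient of variation (CV) was 8.38%, against the 3.91% that counting alone gives. At 100 to 300 counts the median CV was 11.5% against 7.34% from counting, and above 10000 counts 8.40% against 0.818%.

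**Figure D4:**
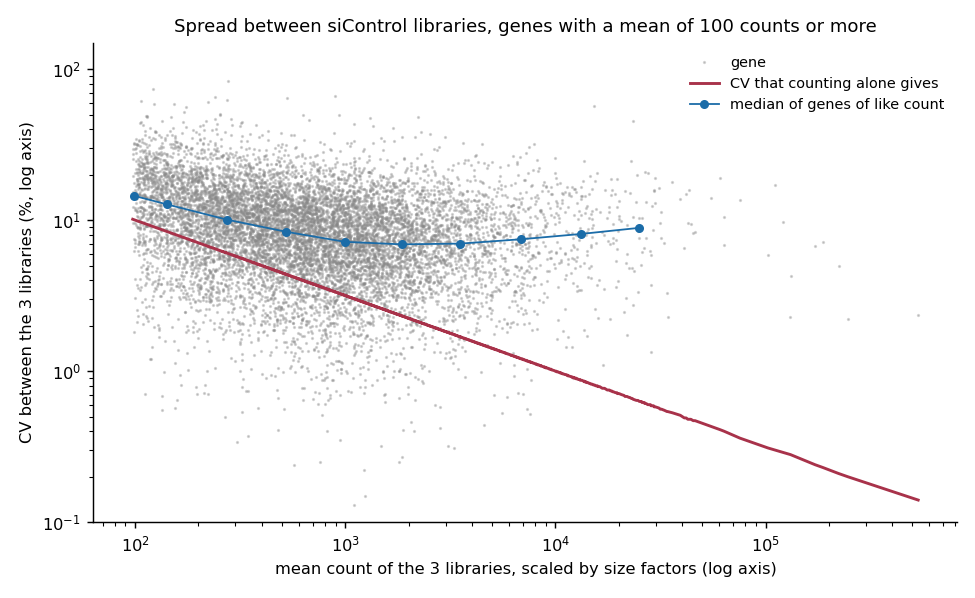
CV between the 3 siControl libraries (%, log axis) against mean scaled count (log axis) for the 10688 genes with a mean of at least 100 counts; grey points are genes, blue points are medians of genes of like count and the red line is the CV from counting alone. The medians level off above the red line as counts rise.

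Of these 10688 genes, 669, or 6.26%, had a highest library at least 1.5 times the lowest, and 83 at least 2 times. This is a rule of size, as 1 group allows no test. Replicate 2 lay in the middle for 495 of the 669 genes, and replicates 1 and 3 were the extremes in that case. Without replicate 1 the count was 219, without replicate 3 it was 161, and without replicate 2 it was 526. A pair of libraries can hardly give more genes than all 3, so only the difference between pairs is informative. The largest ratio was that of ADM2, a peptide hormone gene, which had 195, 125 and 39 counts. PHGDH, the first enzyme of serine synthesis, stood at 5.31, 2.79 and 1.32 FPKM, and SLC1A4, a transporter of serine and alanine, at 1.63, 0.772 and 0.536 FPKM. ELF3, an epithelial transcription factor, stood at 6.32, 6.06 and 2.07 FPKM, so that replicate 3 alone was low. POSTN, a matrix protein, ran the other way, at 1.15, 1.78 and 5.46 FPKM.

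The genes past 1.5-fold gathered in some lists more than in others. Among interstitial matrix genes 9 of 19 members measured at 100 counts met the rule, and all 9 were highest in replicate 3: fibronectin (FN1) stood at 29.9, 34.9 and 80.3 FPKM, COL12A1 at 6.48, 7.74 and 15.3 FPKM and the proteoglycan VCAN at 3.15, 3.95 and 7.51 FPKM. Among mesenchymal genes 6 of 18 met it, all highest in replicate 3, while VIM, LOX and COL1A1 in the same list did not. Among innate defense genes 8 of 15 met it, 7 of them highest in replicate 1 and lowest in replicate 3, with the iron-binding lipocalin LCN2 at 14.2, 10.4 and 4.98 FPKM. Among S100 genes 5 of 13 met it, including S100A14 at 430.0, 374 and 219 FPKM. The 4 of 10 stratified differentiation genes that met it were all lowest in replicate 3, among them KRT10 and the kallikrein KLK7, a skin protease, at 68.1, 58 and 29.8 FPKM.

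The following lists had smaller shares past the rule. Of 20 housekeeping genes, 14 integrin subunits and 12 TGF-β and BMP receptors, 0 met the rule, although EEF1A1 was lower in replicate 3, at 832 FPKM, than in replicates 1 and 2, at 1166 and 1093 FPKM. The 86 ribosomal protein genes held 4.17%, 3.90% and 3.13% of counts, lowest in replicate 3. Of 40 cell cycle genes 5 met it, all highest in replicate 3 and lowest in replicate 1, with the proliferation marker MKI67 at 14.2, 16.3 and 23.5 FPKM and the kinase CDK1 at 7.65, 10.8 and 12.4 FPKM. Of 29 basal markers 4 met it, with KRT15, a keratin of basal progenitor cells, at 247, 213 and 89.9 FPKM. Of the 30 lists with at least 10 measured members, 26 had a share above that of all genes, so a share somewhat above 6.26% is not particular to a list. These lists share members, and what sets the difference between replicates 1 and 3 was not tested. The 5 steadiest genes were RTL10, DGKQ, SMYD5, CCDC88C and RBFOX2, with RTL10 at 8.95, 8.96 and 8.98 FPKM.

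**Figure D5:**
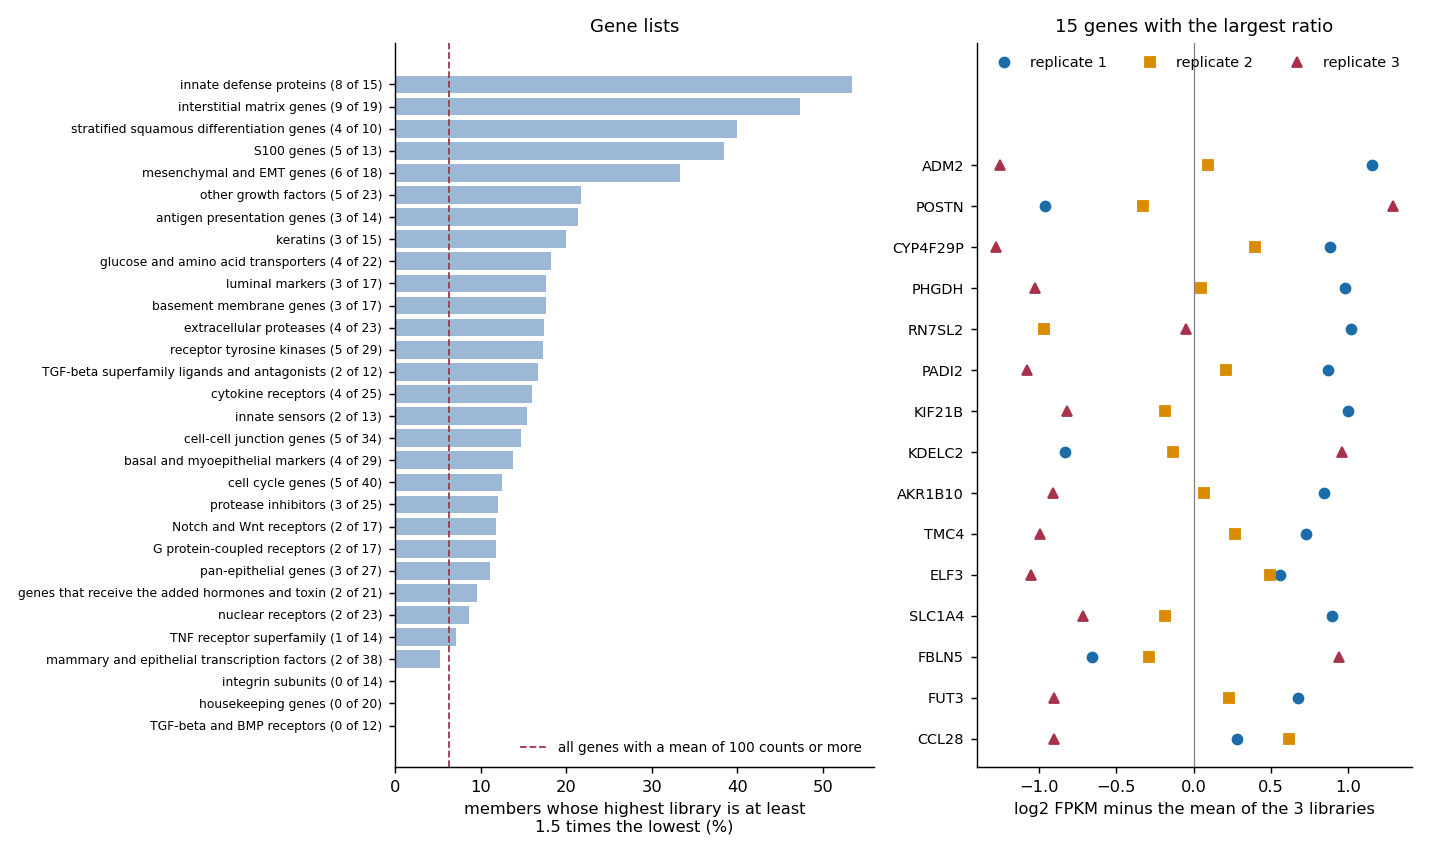
Left, percentage of each list's members whose highest siControl library is at least 1.5 times the lowest, with the share of all genes as a dashed line; right, log2 FPKM of each library minus the mean of the 3 libraries for the 15 genes with the largest ratio. Innate defense and interstitial matrix genes have the longest bars, and replicates 1 and 3 lie at opposite ends for 13 of the 15 genes.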

How the data were processed

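RNA-Seq was performed on MCF10A cells, and the control libraries were used. Raw counts of each gene were deposited in 1 table by the authors. FPKM stand in another, in which the authors scaled those counts by gene length and a library total. The submitters' processing notes name STAR 2.6.1d, featureCounts 1.5.0-p3, DESeq2 1.20.0, edgeR 3.24.3 and hg38; how strand was set is not given in the sources used here. Coordinates and lengths of all 58735 genes equal those of GENCODE 29.

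Levels are the deposited FPKM. Spread was computed in Python 3.11.15 (pandas 2.3.3) from counts divided by median-ratio size factors, with TMM factors of edgeR 4.0.16 (R 4.3.3) as an alternative. With 1 group no test was run. The script was tested on simulated counts. The 42 gene lists and the members were chosen with earlier results of these data known, and 1235 list entries were found. Named genes are the 30 with the highest FPKM, up to 8 per list with defining members near 0 or near 1 FPKM, the 10 highest lncRNA and transcription factor genes, the 15 most and 5 least variable genes, DAB2IP and a set of cell type markers. CDH1, ESRP1, KRT83, INSR, B4GALNT1, IFNAR2, SLC2A1, CIITA, COL1A2, COL3A1, LCN2, VCAN, COL12A1, MKI67, CDK1, MIR17HG, PLIN2, ERBB2, ERBB3, IL6, IL1B, FAP, ZNF593 and HYI were named after their values were seen. Alternatives covered thresholds, scaling, filters, pseudocount and leaving out each library. A count restricted to markers with at least 50% of their exonic bases to themselves was added after seeing the data.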

Additional observations from a re-analysis of the deposited data

How the results depend on the processing

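No paired analysis was possible because 1 group of libraries was described and no test was run. Without each library in turn, the lowest Pearson correlation ranged from 0.985 to 0.989 and the number of genes past 1.5-fold from 161 to 526. Leaving out 1 library leaves 1 pair, so these correlations repeat the pairwise values. A ratio within a pair can hardly exceed that over all 3 libraries, so the fall from 669 genes follows from the rule. The number of expressed luminal markers ranged from 16 to 17, and the other results stayed within 1.5 times their count or within 1 SD. The number of genes past 1.5-fold was 2065 with a mean of at least 20 counts, 119 with at least 1000 counts and 83 at 2-fold, since these settings change which genes qualify. Genes with 0 counts numbered 4024 among protein-coding genes only. The share of counts of the top 100 genes was 24.1% for protein-coding genes and 16.6% without mitochondrially encoded genes, and the share of summed FPKM 20.2% without the latter. The basal over luminal keratin ratio was 7.72 in CPM and 27.0 for KRT5 and KRT14 over KRT8 and KRT18. The lowest correlation was 0.958 with log2(FPKM + 0.1), 0.977 for genes at 1 FPKM or more and 0.917 as Spearman's rho. The share of expressed genes with a CpG-rich promoter was 84.3% at 0.5 FPKM, 86.9% at 2 FPKM, 83.3% at 1 TPM, 82.7% at 10 counts in each library and 70.7% at an observed over expected CpG of 0.75. Expressed genes numbered 14525 at 0.5 FPKM, 10236 at 2 FPKM, 16051 at 1 TPM and 14547 at 10 counts in each library. The luminal markers expressed numbered 19 at 1 TPM and 20 at 10 counts in each library. Counts near 0 limit the order of low genes, and 3 libraries of 1 line and 1 condition limit what the spread covers.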

Other observations

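RNA of MHC class I genes was present, and that of the class II genes named here was nearly absent. Of 24 antigen presentation genes 13 were expressed, or 54.2%, near the background share. B2M, the light chain of class I, stood at 180.4, 200.1 and 163 FPKM and HLA-C at 161, 166 and 145 FPKM. HLA-B stood at 88.9, 83.8 and 52.3 FPKM, with replicate 3 lowest. HLA genes resemble each other and reads may be split between them. The class II genes HLA-DQA1, HLA-DQB1 and HLA-DPB1 had 0 counts, and CIITA, the class II transactivator, stood at 0.362, 0.287 and 0.232 FPKM.

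Among nutrient transporters, amino acid carriers led by RNA level. Of 30 glucose and amino acid transporters 21 were expressed, 5 of them at 100 FPKM or more. SLC38A2, a glutamine and alanine carrier, stood at 186, 204 and 191 FPKM, SLC3A2, the chaperone chain that pairs with SLC7A5, at 161, 141 and 120.2 FPKM, and the lactate exporter SLC16A3 at 119, 122 and 114 FPKM. The glucose transporter SLC2A1 stood at 56.1, 51.2 and 42.9 FPKM, and SLC2A2 of liver had 0 counts. Among junction genes 34 of 52 were expressed, with the desmosomal cadherin DSG3 at 138, 130.2 and 119 FPKM and the tight junction claudin CLDN7 at 82.1, 70.7 and 52.4 FPKM.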
